A study of Mus musculus with 22 samples.

Results

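Beta-glucan was added to an antibody against CD40 in mice carrying a pancreatic tumour, and the tumours that received both agents were compared with those that received the antibody alone. The comparison uses 11 of the 22 tumours of the study, 5 with both agents (the combination) and 6 with anti-CD40, chosen by the treatment named in their labels. Tumours are numbered as in their titles, and combination tumour 5 is the one whose column in the table carries the number 6. The tumours were orthotopic, started in the pancreas with PDA.7940B, a polyclonal cell line of pancreatic ductal adenocarcinoma that comes from KPC mice, and all samples carry the genotype label WT. The anti-CD40 group received 1 dose of 0.1 mg of clone FGK45 by the intraperitoneal route. The beta-glucan group (n = 6), used here for reference, received 1 intravenous dose of 1.2 mg, and 5 further tumours were untreated. The labels give no doses for the combination and no age, sex or mouse number for any group. Treated tumours were taken 10 days after treatment. RNA came from sections of formalin-fixed, paraffin-embedded tissue and was read from the 3′ ends of transcripts, so that a value reflects a transcript's 3′ end and not its isoforms. The question of the comparison is how tumours given both agents differ from tumours given anti-CD40 alone. Adding beta-glucan is used here as a name for that comparison and implies no order of the agents. Nothing in the labels tells whether separate mice gave the tumours of a group. The p-values of genes measure the spread within groups over all 22 tumours, not over the 11 alone. That spread may therefore be partly technical.

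Beta-glucans are glucose polymers of fungal cell walls. They are bound by Dectin-1, a C-type lectin of macrophages, monocytes, dendritic cells and neutrophils that is encoded by Clec7a and signals through the kinase Syk and the adaptor Card9 towards NF-kB, phagocytosis and the oxidative burst. CD40 is a receptor of the TNF family on antigen-presenting cells, and agonist antibodies such as FGK45 stand in for its ligand on T cells. In pancreatic cancer, macrophages, neutrophils and fibroblasts make up much of the tissue around the malignant ducts, and normal acinar tissue is often included in a section.

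Levels below are normalized counts, read counts divided by the authors' size factor for each tumour. A log2 fold change is the difference of group means on the log2(normalized count + 1) scale, combination minus anti-CD40 unless another comparison is named, and the ± after it is its standard error. A gene is said to have risen or fallen where limma gave an adjusted p under 0.05 over the 14278 genes tested. Depth was 6.33 M to 21.2 M reads in anti-CD40 tumours and 12.2 M to 18.8 M in the combination. The following 2 features set single tumours apart. Transcripts of normal acinar tissue, such as elastases and trypsinogens, took 27.3% ± 24.1 (SD, n = 6) of the values with anti-CD40 and 23.2% ± 14.9 (SD, n = 5) with the combination, a difference with p = 0.758 in an exact two-sided permutation test. Their share ran from 0.621% to 66.3% among anti-CD40 tumours, with the highest value in tumour 6, and from 0.592% to 35.9% with the combination. Anti-CD40 tumour 5 held the lowest level of the epithelium list (keratins, cadherin and claudins): 6.22 as a mean log2 level, where the other anti-CD40 tumours held 8.09 to 8.97 and the 5 combination tumours 6.58 to 7.69. The same tumour had the highest macrophage and T cell list levels of its group, 11.7 and 8.35.

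**Figure D1:**
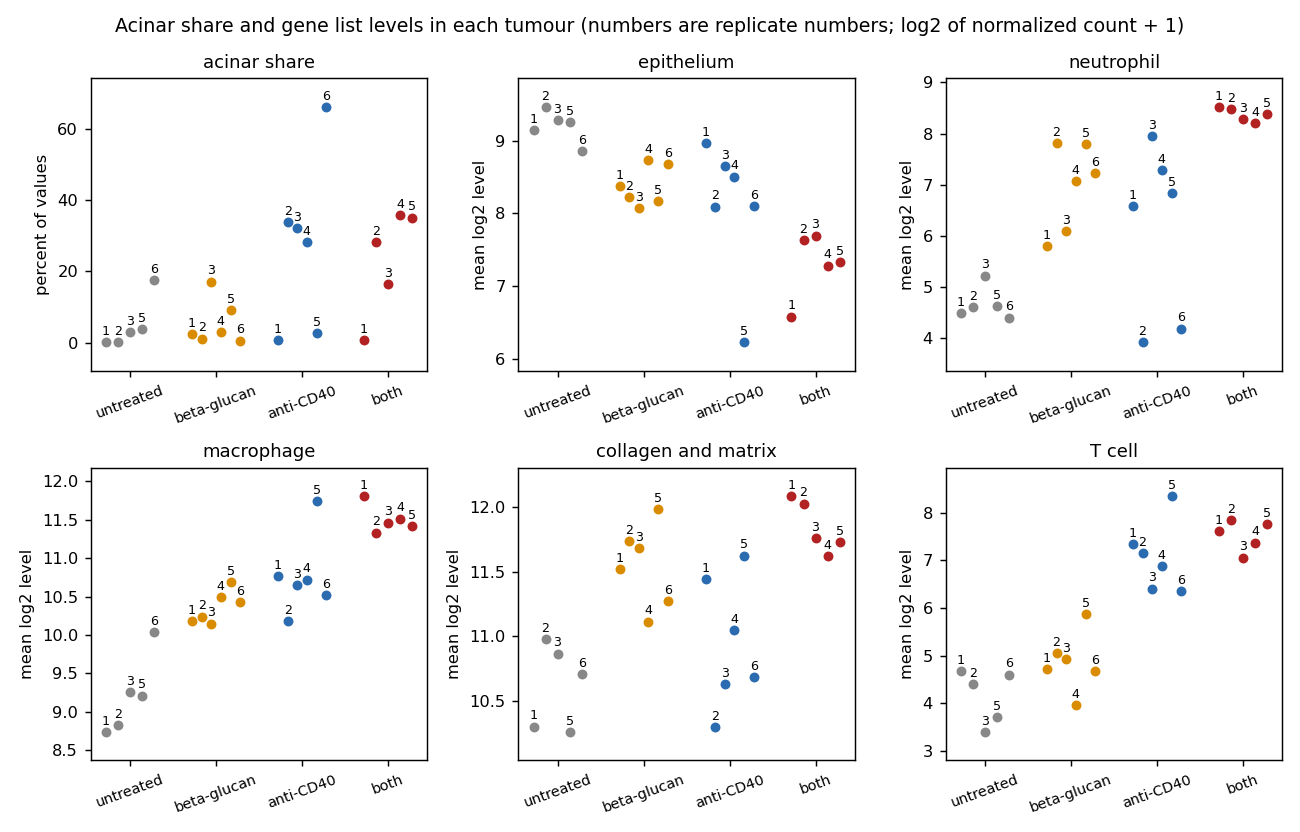
Acinar share (percent of values) and the mean log2(normalized count + 1) of 5 gene lists, 1 point per tumour, numbered by replicate, in untreated, beta-glucan, anti-CD40 and combination ("both") tumours. The neutrophil list lay at 8.20 to 8.52 in the 5 combination tumours and at 3.92 to 7.95 in the 6 anti-CD40 tumours, and anti-CD40 tumours 5 and 6 stand out for epithelium and acinar share.

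In all, 94 genes rose and 118 fell when beta-glucan was added, which is 1.48% of the genes tested (0.658% higher and 0.826% lower). Of these, 168 changed by at least 2-fold, 72 upwards and 96 downwards. The 12 largest rises among genes of sufficient level were Sprr2e, Serpinb2, Il1f9, Cxcr2, Cxcl2, the betaine transporter gene Slc6a12 (3.45 ± 0.88), Mirt2, the carbonic anhydrase gene Car4 (3.16 ± 0.72), Saa3, Asprv1, Mmp3 and Acod1. Slc6a12 had 67, 32, 99, 6 and 6 reads with the combination and 2, 0, 0, 3, 5 and 0 with anti-CD40. Its fitted fold therefore depends on the pseudocount, and its call was lost, for instance, without anti-CD40 tumours 2 or 6. For Car4 the values of the groups overlapped. The 12 largest falls were Lgals2, Mcpt2, Cldn18, Vsig1, Glod5, Adam28, Pax9, Plut, Frmpd1, Ifi27l2b, Tspan8 and Mcpt8. In 39 of the 94 genes that rose, every combination tumour lay above every anti-CD40 tumour, a pattern found in 0.777% of all genes tested. In 24 of the 118 that fell, every combination tumour lay below, against 0.497% of all genes tested. The median log2 fold change over all genes was 0.01. Rescaling to equal totals gave a median of 0.129, and no list median quoted below for a list with a called gene changed sign under equal totals, quantile normalization or the count models.

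The number of genes called depended on single tumours and on the variance model. All 212 genes kept their sign in each fit that measured them, which is largely fixed by their having been called in these same tumours. Only 6 genes (4 higher, 2 lower) passed when the 11 tumours were fitted alone, 8 (5 higher, 3 lower) with values rescaled to equal totals, and 3 (1 higher, 2 lower) without the 5 tumours in which acinar genes took over 30% of the values. With the 11 tumours alone, Serpinb2, Saa3, Itgam and Gas1 passed as higher and Mgl2 and Capn5 as lower. Genes that did not pass in that fit included Cxcl2, Cxcr2, Sprr2e, Arg1, Il1b, Lgals2, Mcpt2, Krt19 and Col1a1. With count models on the recovered reads, edgeR called 148 (44 higher, 104 lower) and DESeq2 665 (220 higher, 445 lower). Without anti-CD40 tumour 5, 852 genes passed, 412 higher and 440 lower. Leaving out anti-CD40 tumour 6 gave 395 (97 higher, 298 lower), and leaving out anti-CD40 tumours 1, 2, 3 or 4 gave 120, 28, 33 and 42. Leaving out combination tumours 1, 2, 4 or 5 gave 45, 82, 82 and 60. Without combination tumour 3 it was 269, with the split moving to 60 higher and 209 lower.

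Neutrophil chemokines and their receptor showed some of the clearest differences. Cxcl2, a chemokine that draws neutrophils, stood at 401, 468, 274, 95.6 and 296 in combination tumours 1 to 5 and at 2.72 to 89.7 (median 26.2) with anti-CD40. All 5 combination tumours lay above all 6 anti-CD40 tumours, although combination tumour 4 did so narrowly, and the log2 fold change was 3.56 ± 0.57 (adjusted p = 0.00471). Its receptor Cxcr2, which neutrophils carry, stood at 105, 119.99, 146, 143 and 79.5 against 0 to 40.5 (median 12.2). Again no values overlapped, and it rose by 3.58 ± 0.63 (adjusted p = 0.00704). The neighbouring chemokine genes on chromosome 5 did not pass: Cxcl3 was at 2.56 ± 1.03 (adjusted p = 0.211), with 1 combination tumour listed at 0, and Cxcl1 at 0.94 ± 0.49 (adjusted p = 0.363). DESeq2 called Cxcl3 (adjusted p = 0.0205) and edgeR did not (adjusted p = 0.0979). Of the 7 tested genes of this list, which also holds Cxcl5, Ppbp and Csf3, all 7 had positive values, with a median log2 fold change of 2.28, and Cxcl2 and Cxcr2 rose. In beta-glucan tumours Cxcl2 was at 138 to 366 (median 245) and in untreated ones at 60.4 to 139.5 (median 81.3). Of the combination tumours, 4 lay within or above the beta-glucan range and tumour 4 below it, while anti-CD40 tumours lay within or below the untreated range.

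The promoters of the 3 chemokine genes are shown because the genes are neighbours, although 1 of them passed here and the other 2 did not. Their responses were not compared with each other. Each line gives the 120 bases before the RefSeq start on GRCm38.p6, plus strand, with the match to the NF-kB consensus in capitals. The windows are chr5:90903779-90903898 for Cxcl2, chr5:90891125-90891244 for Cxcl1 and chr5:90785981-90786100 for Cxcl3.
Cxcl2: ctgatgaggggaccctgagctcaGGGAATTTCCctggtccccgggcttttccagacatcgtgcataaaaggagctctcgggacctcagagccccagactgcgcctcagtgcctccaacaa
Cxcl1: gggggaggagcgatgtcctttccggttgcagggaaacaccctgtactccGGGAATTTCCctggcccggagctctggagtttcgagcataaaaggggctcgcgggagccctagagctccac
Cxcl3: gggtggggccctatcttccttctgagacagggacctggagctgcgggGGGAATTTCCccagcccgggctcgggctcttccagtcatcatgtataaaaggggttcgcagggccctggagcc
All 3 hold the same 10 letters in the same orientation, starting 97 bases before the start in Cxcl2, 71 in Cxcl1 and 73 in Cxcl3. The consensus, searched on both strands, is found in 5.8% of 32851 RefSeq promoter windows of 300 bases, and these exact letters are found in 0.0883%. Of the 94 genes that rose, 69 had a window, and 13 of them (18.8%) held a consensus match. Among genes that fell it was 7 of 76 (9.21%), and among all tested genes with a window 964 of 11129 (8.66%). A match describes the letters and is not evidence that the factor binds there.

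Among neutrophil markers 3 of 18 rose. S100a8, one subunit of the calprotectin that fills neutrophil cytoplasm, stood at 13327, 10756, 11594, 13919 and 10332 with the combination and 585 to 10414 (median 3916) with anti-CD40, and rose by 2.03 ± 0.51 (adjusted p = 0.0472). Anti-CD40 tumour 3 reached into the combination range, and tumours 2 and 6 were the lowest. Il1r2, the decoy receptor for interleukin-1, rose by 1.64 ± 0.37 (adjusted p = 0.0309). S100a9, the partner of S100a8, did not pass (2.22 ± 0.64, adjusted p = 0.0826). Nor did Ly6g, a surface antigen of mouse neutrophils, at 116, 56, 35.9, 133 and 149 against 0 to 63.4 (median 20) (2.54 ± 0.81, adjusted p = 0.109). Csf3r, the receptor for G-CSF, was at 2.0 ± 0.65 and the amplifying receptor Trem1 at 2.09 ± 0.58, with adjusted p = 0.118 and 0.0648. All 18 markers of the list had positive values, their median log2 fold change was 2.10 against 0.01 for all genes, and the 3 that rose were S100a8, Cxcr2 and Il1r2. The number called was 7 without anti-CD40 tumour 5 and 1 without anti-CD40 tumours 1, 2 or 4 or combination tumours 1 or 4. In bulk tissue, more neutrophils and more of these transcripts per cell cannot be told apart, here and for every cell type named below.

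Interleukin-1 family genes rose in 4 of 12 tested, with a list median of 1.05. Il1f9, which encodes interleukin-36 gamma, a cytokine of epithelium and myeloid cells, stood at 112, 56, 100.0, 125 and 52.4 with the combination. It was at 0 to 40.9 (median 1.57) with anti-CD40, where 3 tumours had no read, and rose by 4.70 ± 0.92 (adjusted p = 0.0156). Il1b, the main secreted ligand, was at 3279, 2291, 3096, 865 and 2055 against 236 to 1649 (median 561) (1.97 ± 0.38, adjusted p = 0.0161). Combination tumour 4 fell inside the anti-CD40 range and the other 4 lay above it. Il1rn, the receptor antagonist of the same pathway, was at 3906, 1773, 3769, 2471 and 2141 against 508 to 1683 (median 868), without overlap (1.59 ± 0.28, adjusted p = 0.00773). A ligand, the antagonist and the decoy receptor thus rose together, whereas the signalling receptor Il1r1 was at 0.54 and Il18 at 0.15, neither of which passed. The count of 4 was 1 without anti-CD40 tumour 2 and 2 without combination tumour 1.

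The 2 largest rises were Sprr2e and Serpinb2. Serpinb2 (chr1:107511423-107535478, GRCm38), an inhibitor of urokinase made by activated macrophages and keratinocytes, stood at 129.9, 138, 174, 125 and 151 with the combination and at 0 to 17.3 (median 2.44) with anti-CD40, where tumours 2, 4 and 6 had no read. The log2 fold change was 5.40 ± 0.73 (adjusted p = 0.00151), and the call held in 25 of 26 alternative fits. Sprr2e (chr3:92352143-92353449), a precursor protein of the cornified envelope, was at 897, 439, 233, 121 and 858 against 0 to 46.8 (median 11.9) (5.49 ± 0.84, adjusted p = 0.00456). For both genes the groups did not overlap. Sprr2e belongs to a family of near-identical genes, and reads of its relatives may be counted with it. Asprv1, a protease of skin and of neutrophils, rose by 2.60 ± 0.45 and Mirt2, a long non-coding RNA induced by bacterial products in macrophages, by 3.35 ± 0.66, again without overlap. The squamous list as a whole did not follow: Sprr1a fell (-1.57 ± 0.40, adjusted p = 0.0462), Serpinb2 was the 1 of 10 tested members that rose, and the median was -1.52, with 8 of 10 negative. That median was -0.99 without anti-CD40 tumour 4, and in the other 10 fits with 1 tumour left out it stayed within 1.5 times. The call of Sprr1a was lost without any 1 of anti-CD40 tumours 1 to 4 or combination tumours 1, 2, 4 or 5.

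**Figure D2:**
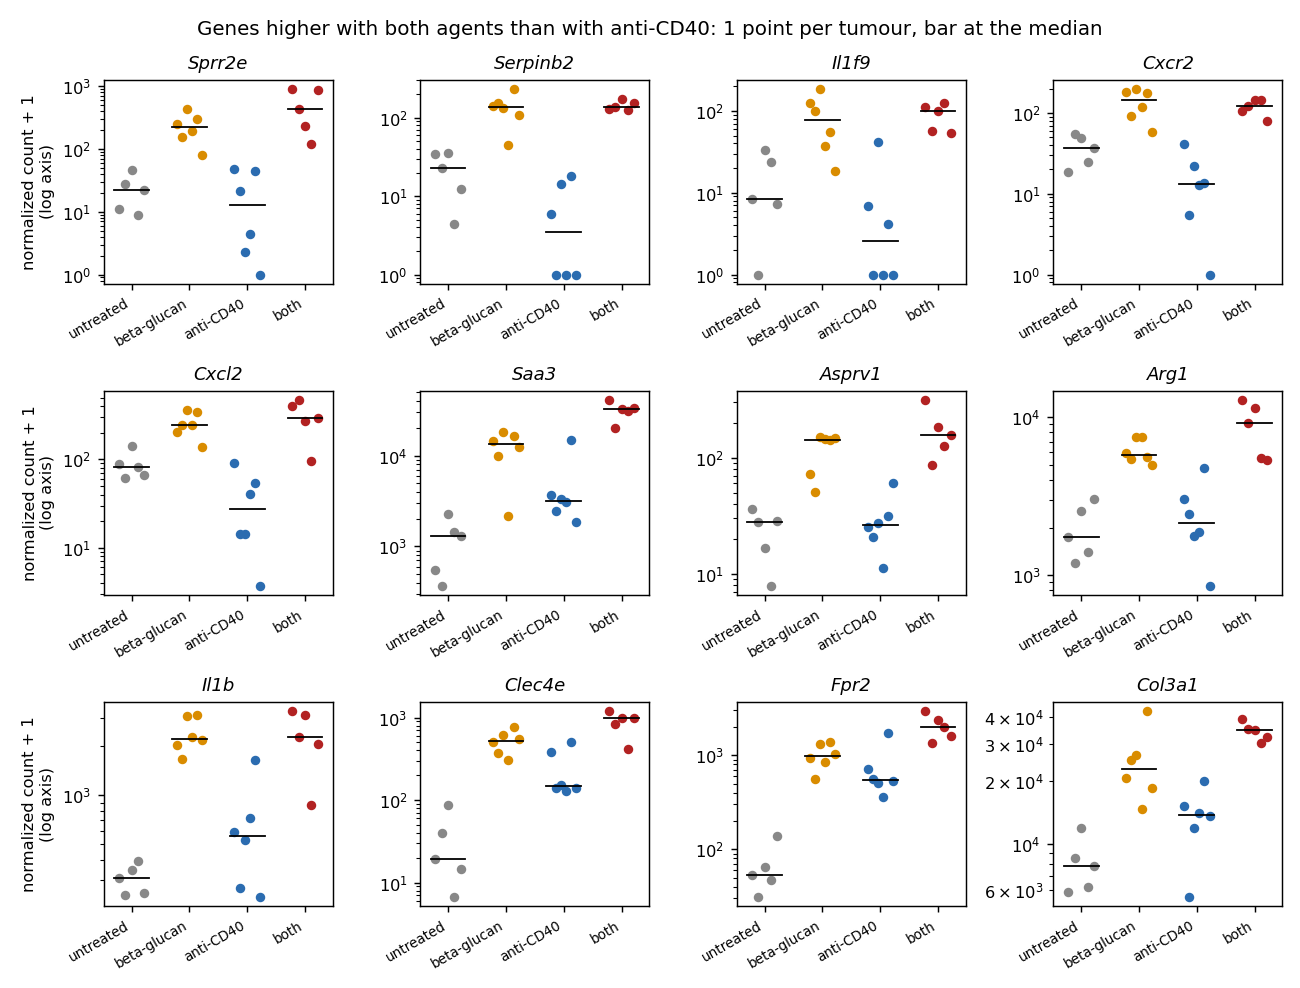
Normalized count + 1 on a log axis for 12 genes that were higher with the combination, 1 point per tumour in the 4 groups ("both" is the combination), with a bar at the median. For Serpinb2 the combination tumours sit between 125 and 174 and the anti-CD40 tumours between 0 and 17.3; for Clec4e and Fpr2 the anti-CD40 tumours already lie above the untreated ones.

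Pattern receptors for fungal glycans rose in part. Clec4e (Mincle), which signals through the same Syk and Card9 route as Dectin-1, stood at 1191, 833, 979.6, 416 and 983 against 129 to 507 (median 145) (2.02 ± 0.49, adjusted p = 0.0413). Combination tumour 4 lay within the range of anti-CD40 tumours, among which 1 and 5 were high. Its partner Clec4d was at 2359.5, 1465, 2103, 1352 and 1406 against 201 to 1328 (median 464), with every combination tumour above (1.72 ± 0.34, adjusted p = 0.0161). Clec4a2, an inhibitory lectin of dendritic cells, rose by 0.90 ± 0.21. Clec7a, the gene of Dectin-1 itself, did not pass: it was at 4456, 3047, 4490.4, 1613 and 3871 with the combination and 861 to 2605 (median 1684) with anti-CD40 (1.01 ± 0.30, adjusted p = 0.0825), and the lowest combination tumour, 4, lay among the anti-CD40 values. In the list of C-type lectins 3 of 13 tested genes rose, 12 of 13 were positive and the median was 0.91. In the Dectin-1 pathway list 3 of 19 rose: Itgam, an integrin chain that pairs into the complement receptor CR3 (1.62 ± 0.36), the NADPH oxidase subunit Ncf1 (1.16 ± 0.28) and the adaptor Tyrobp (0.86 ± 0.22). All 19 were positive with a median of 0.89, and Syk (0.85 ± 0.32), Card9 (0.64 ± 0.63) and the oxidase heavy chain Cybb (1.09 ± 0.29) did not pass. Without anti-CD40 tumour 5, the highest of its group for Itgam, Ncf1 and Tyrobp, 12 of the 19 Dectin-1 pathway genes and 8 of the 13 lectins passed. No Dectin-1 pathway gene passed without anti-CD40 tumours 2, 3 or 4 or combination tumours 1 or 5, 1 passed without anti-CD40 tumour 1 or combination tumours 2 or 3, and 2 without combination tumour 4. No lectin passed without anti-CD40 tumour 3 or combination tumour 1, and 1 without anti-CD40 tumours 2 or 4 or combination tumours 2 or 5.

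Receptors for chemoattractants rose in 4 of 12, and all 12 were positive, with a median of 1.25. Fpr2, a formyl peptide receptor of neutrophils and macrophages, was at 2942, 1356, 2369, 2011 and 1604 against 360.3 to 1742 (median 545) (1.63 ± 0.36, adjusted p = 0.0308). Anti-CD40 tumour 5 overlapped the combination, while the other 5 lay below it. The count of 4 was 7 without that tumour, 0 without anti-CD40 tumours 2, 3 or 4 or combination tumour 1, 1 without combination tumour 4 and 2 without combination tumours 2 or 5. The leukotriene B4 receptor Ltb4r1 rose by 1.84 ± 0.41, the platelet-activating factor receptor Ptafr by 1.34 ± 0.29 and the complement C3a receptor C3ar1 by 1.19 ± 0.27. Fpr1, the paralog of Fpr2, did not pass (1.26 ± 0.60, adjusted p = 0.304), nor did Ccr2, which brings monocytes from the blood (1.23 ± 0.43, adjusted p = 0.148). The lipid mediator genes Alox5ap, the helper of 5-lipoxygenase (1.26 ± 0.29), and Pla2g7, which degrades platelet-activating factor (1.10 ± 0.27), were the 2 of 13 eicosanoid genes that rose. Of the 13, none passed without anti-CD40 tumours 2, 3 or 4 or combination tumours 1 or 2, and 1 without anti-CD40 tumour 6 or combination tumours 3, 4 or 5.

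Among macrophage markers 2 of 17 rose. Cd68, a lysosomal glycoprotein, rose by 0.88 ± 0.22 (adjusted p = 0.0413), and the scavenger receptor Msr1 by 0.96 ± 0.24 (adjusted p = 0.045). All 17 tested markers were positive, with a median of 0.76. Without anti-CD40 tumour 5, which had the highest list level of its group, 5 rose, and 1 or none without any other single tumour. The complement component C1qa (0.42 ± 0.41), Adgre1, which encodes F4/80 (0.63 ± 0.24), and the lysozyme Lyz2 (0.87 ± 0.37) did not pass. Gpnmb, a glycoprotein of lipid-laden macrophages, was at 1942, 1212, 1253, 2896 and 2173 against 337 to 1626 (median 501) (1.67 ± 0.35, adjusted p = 0.0271), with anti-CD40 tumour 5 inside the combination range. The lysosomal protease Ctsb was at 12461, 12093, 11166, 11171 and 12629 against 5505 to 11036 (median 7114), without overlap by a narrow margin (0.72 ± 0.16, adjusted p = 0.0308). Gpnmb and Ctsb were the 2 of 14 lipid-associated macrophage genes that rose, with 11 positive, 3 negative and a median of 0.68. That count was 7 without anti-CD40 tumour 5. It was 0 without anti-CD40 tumours 2 or 3 or combination tumours 1 or 5, and 1 without anti-CD40 tumour 4 or combination tumours 2 or 4.

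Genes of macrophage activation states gave mixed results. Arg1, which consumes arginine, stood at 12806, 9124, 11480.2, 5532 and 5343 in the combination and 856 to 4796 (median 2144) with anti-CD40, without overlap (1.95 ± 0.33, adjusted p = 0.00688). Acod1, which makes itaconate, was at 1385, 1049, 1143, 490.1 and 998 against 123 to 500.2 (median 155) (2.19 ± 0.44, adjusted p = 0.0185). Combination tumour 4 was the lowest of its group and just below anti-CD40 tumour 5. Mgl2, a lectin of alternatively activated macrophages and dendritic cells, went the other way, at 201, 261, 219, 459.6 and 236 against 630.3 to 1021 (median 777), with every combination tumour below (-1.58 ± 0.36, adjusted p = 0.0321). Nos2, the inducible nitric oxide synthase, ranged from 7.97 to 1295 with the combination and did not pass (2.04 ± 1.16, adjusted p = 0.417). Tnf (1.55 ± 0.43, adjusted p = 0.0676) and Cd274, which encodes PD-L1 (1.35 ± 0.44, adjusted p = 0.12), did not pass either. In the list of suppressive macrophage genes, Arg1 and Acod1 were the 2 of 13 tested that rose and Mgl2 fell, with 6 positive and 7 negative. In the list of inflammatory macrophage genes, Il1b was the 1 of 12 that rose, with 9 positive and 3 negative. With 1 tumour left out, 1 to 2 suppressive and 0 to 4 inflammatory genes rose. Saa3, an acute-phase protein of macrophages and inflamed fibroblasts, was at 40720.0, 19898, 32579, 30755 and 33284 against 1847 to 14677 (median 3188) (3.06 ± 0.55, adjusted p = 0.0119). All 5 combination tumours lay above all 6 others, and the highest anti-CD40 tumour was again 5.

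Collagen and protease genes rose in part. Col3a1 and Col1a1, chains of the fibrillar collagens, stood at 39246, 35280.4, 34880.0, 30152 and 32104 and 85468, 65721, 70198, 81592 and 66169 with the combination. With anti-CD40 they were at 5590.4 to 19871 (median 13779) and 16813 to 61248 (median 34964). Neither gene's groups overlapped, and the log2 fold changes were 1.45 ± 0.27 (adjusted p = 0.0119) and 1.18 ± 0.27 (adjusted p = 0.0321). Thbs2, a matrix protein of fibroblasts, rose by 1.40 ± 0.28, Lox, which cross-links collagen, by 1.32 ± 0.29, Sparc by 1.18 ± 0.28 and Col5a1 by 0.81 ± 0.20. In the list of collagens and matrix proteins 6 of 24 rose, 22 of 24 were positive and the median was 0.99; Acta2, the smooth muscle actin of contractile fibroblasts, was at -0.17. The list level lay at 11.6 to 12.1 in combination tumours and 10.3 to 11.6 in anti-CD40 tumours. Among matrix proteases and their inhibitors 4 of 19 rose, with a median of 1.23. Mmp9, the gelatinase of neutrophils and macrophages, rose by 1.58 ± 0.37, the collagenase Mmp13 by 2.01 ± 0.48, the stromelysin Mmp3 by 2.56 ± 0.64 and the sheddase Adam8 by 1.32 ± 0.31. Mmp3 is close to the threshold (adjusted p = 0.0483); it was at 1656, 514, 351, 1351 and 1276 against 29.9 to 406 (median 177), and combination tumour 3 lay within the anti-CD40 range. Without anti-CD40 tumour 5, 15 matrix genes and 8 protease genes passed. Without anti-CD40 tumours 2, 3 or 4 it was 1, 1 and 2 matrix genes and no protease gene, and without combination tumour 1 it was 1 and none. No protease gene passed without combination tumour 2, and 1 passed without combination tumours 3 or 5, while 2 matrix genes passed without combination tumour 4. Adipocyte genes, of fat that a section can include, had no call but moved alongside: 8 of 9 tested were positive, with a median of 1.14, and Lep was at 0 in all anti-CD40 tumours. Their summed level was 913 to 2649 with anti-CD40 and 2133 to 6586 with the combination. The part that these genes or the lower epithelium list level of the combination tumours play in the myeloid and matrix rises was not tested.

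The promoters of Mmp13 and Mmp3 lie on chromosome 9 and are shown because both genes rose and both hold an AP-1 match (TGACTCA, searched on both strands), in capitals, in the 120 bases before the start on GRCm38.p6, plus strand. The windows are chr9:7272394-7272513 for Mmp13 and chr9:7445702-7445821 for Mmp3.
Mmp13: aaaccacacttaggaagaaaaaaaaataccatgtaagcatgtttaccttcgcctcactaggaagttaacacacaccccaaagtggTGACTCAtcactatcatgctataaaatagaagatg
Mmp3: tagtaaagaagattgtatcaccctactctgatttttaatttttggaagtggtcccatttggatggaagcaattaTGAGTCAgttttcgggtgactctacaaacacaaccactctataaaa
The match starts 35 bases before the start in Mmp13 and 46 in Mmp3, where it lies on the opposite strand. It is found in 5.2% of all promoter windows, in 11 of the 69 windowed genes that rose (15.9%), in 7 of 76 that fell (9.21%) and in 566 of 11129 tested (5.09%).

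**Figure D3:**
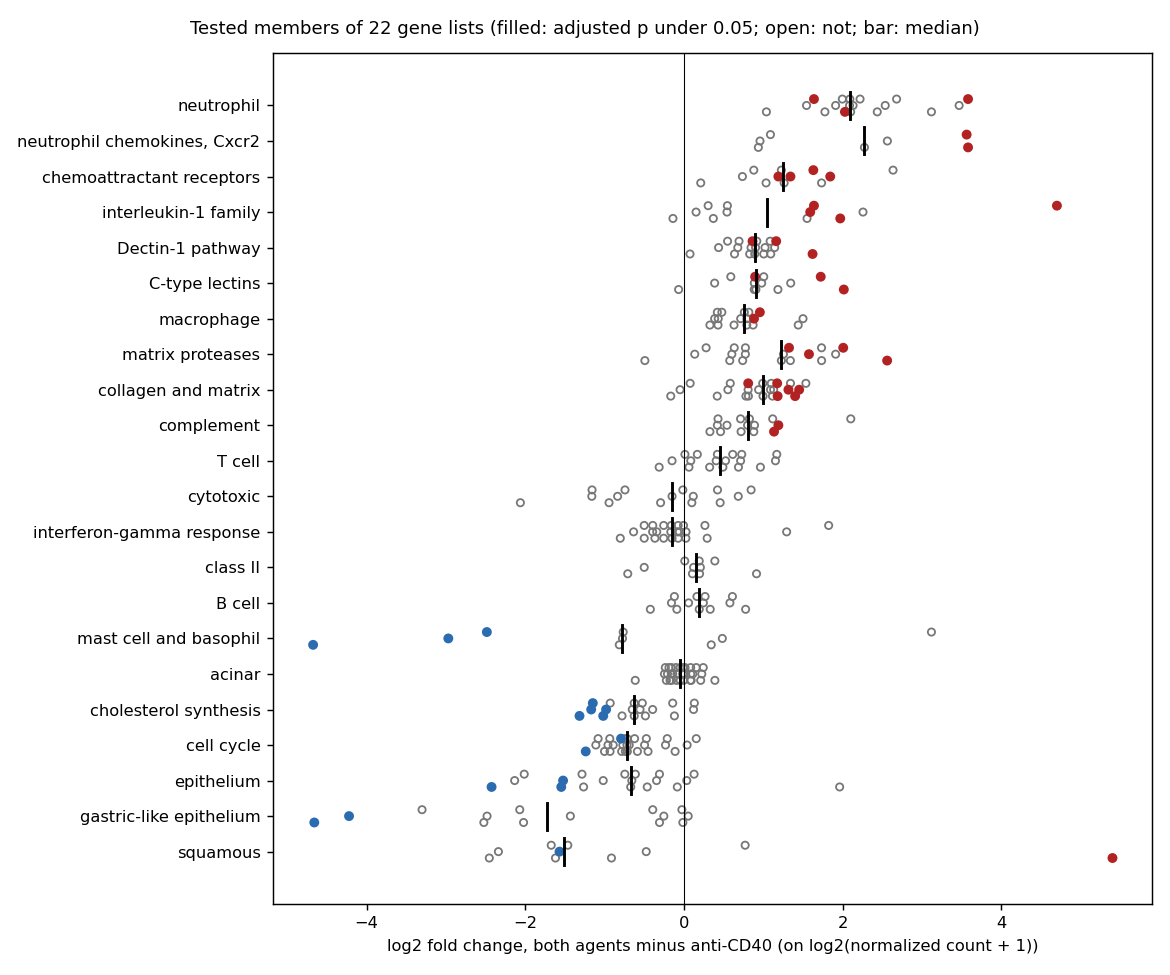
Log2 fold change, combination minus anti-CD40, of the tested members of 22 gene lists; filled points passed (red higher, blue lower), open points did not, and the bar marks the list's median. Neutrophil, chemokine and matrix protease lists sit to the right with medians of 2.10, 2.28 and 1.23, cytotoxic and B cell lists near 0, and gastric-like and squamous epithelium to the left with medians of -1.73 and -1.52.

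Epithelial genes fell in part. Krt19, the keratin of pancreatic ducts, stood at 293, 259, 606, 183 and 120.27 with the combination and 383 to 3014 (median 2134) with anti-CD40 (-2.43 ± 0.51, adjusted p = 0.0308). Anti-CD40 tumours 5 and 6 lay below combination tumour 3, and the other 4 were several times higher. Krt18, another type I keratin of simple epithelia, fell by 1.55 ± 0.38 and Klf5, an epithelial transcription factor, by 1.52 ± 0.37 on the log2 scale. In the epithelium list 3 of 19 fell and 16 of 19 were negative, with a median of -0.67. The median was -1.12 without anti-CD40 tumour 5 and -0.37 without combination tumour 1. The count was 8 without anti-CD40 tumour 5, 5 without anti-CD40 tumour 6 or combination tumour 3, 1 without anti-CD40 tumour 1, and 0 without any other single tumour. Cdh1, which encodes E-cadherin (-1.29 ± 0.34, adjusted p = 0.0586), and Krt8 (-2.01 ± 0.57, adjusted p = 0.0772) missed the threshold. Epcam (-0.35 ± 0.40, adjusted p = 0.747) did not pass.

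Of the 12 largest falls, several are genes of stomach or foregut epithelium. Lgals2 (chr15:78850860-78855529), a galectin of the gastrointestinal mucosa, stood at 0, 3.65, 27.5, 1.33 and 0 with the combination and at 12.6 to 559.7 (median 189.5) with anti-CD40 (-5.48 ± 0.84, adjusted p = 0.00465). Combination tumour 3 lay above anti-CD40 tumour 5, and the other 4 lay below all anti-CD40 tumours. Cldn18, a tight-junction protein of stomach, was at 5.14, 7.31, 50, 29.2 and 0 against 27.2 to 1274 (median 393) (-4.66 ± 1.0, adjusted p = 0.0308). Vsig1, a junctional adhesion protein of stomach, fell by 4.22 ± 1.05, and Pax9, a transcription factor of foregut development, by 3.44 ± 0.80. Glod5 (-4.17 ± 0.93), the metalloprotease Adam28 (-3.76 ± 0.83) and the tetraspanin Tspan8 (-3.02 ± 0.61) fell as well. So did Frmpd1 (-3.27 ± 0.74), Ifi27l2b (-3.03 ± 0.66) and the non-coding RNA Plut (-3.40 ± 0.69), which lies beside the pancreatic factor gene Pdx1. Frmpd1 had no read in combination tumours 4 and 5. It was called neither by edgeR (-1.865, adjusted p = 0.185) nor by DESeq2 (-1.892, adjusted p = 0.0584). In the gastric-like list 2 of 14 tested (Cldn18, Vsig1) fell and 13 of 14 were negative, with a median of -1.73, or -1.04 without anti-CD40 tumour 4. The count was 4 without anti-CD40 tumour 6, 1 without anti-CD40 tumour 1 or combination tumour 4, and 0 without anti-CD40 tumours 2, 3 or 4 or combination tumours 1, 2 or 5. For all of Cldn18, Vsig1, Glod5, Pax9 and Tspan8, anti-CD40 tumours 5 and 6 were the 2 lowest of their group, and combination tumour 3 was the highest of its own for the first 3 and for Tspan8.

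**Figure D4:**
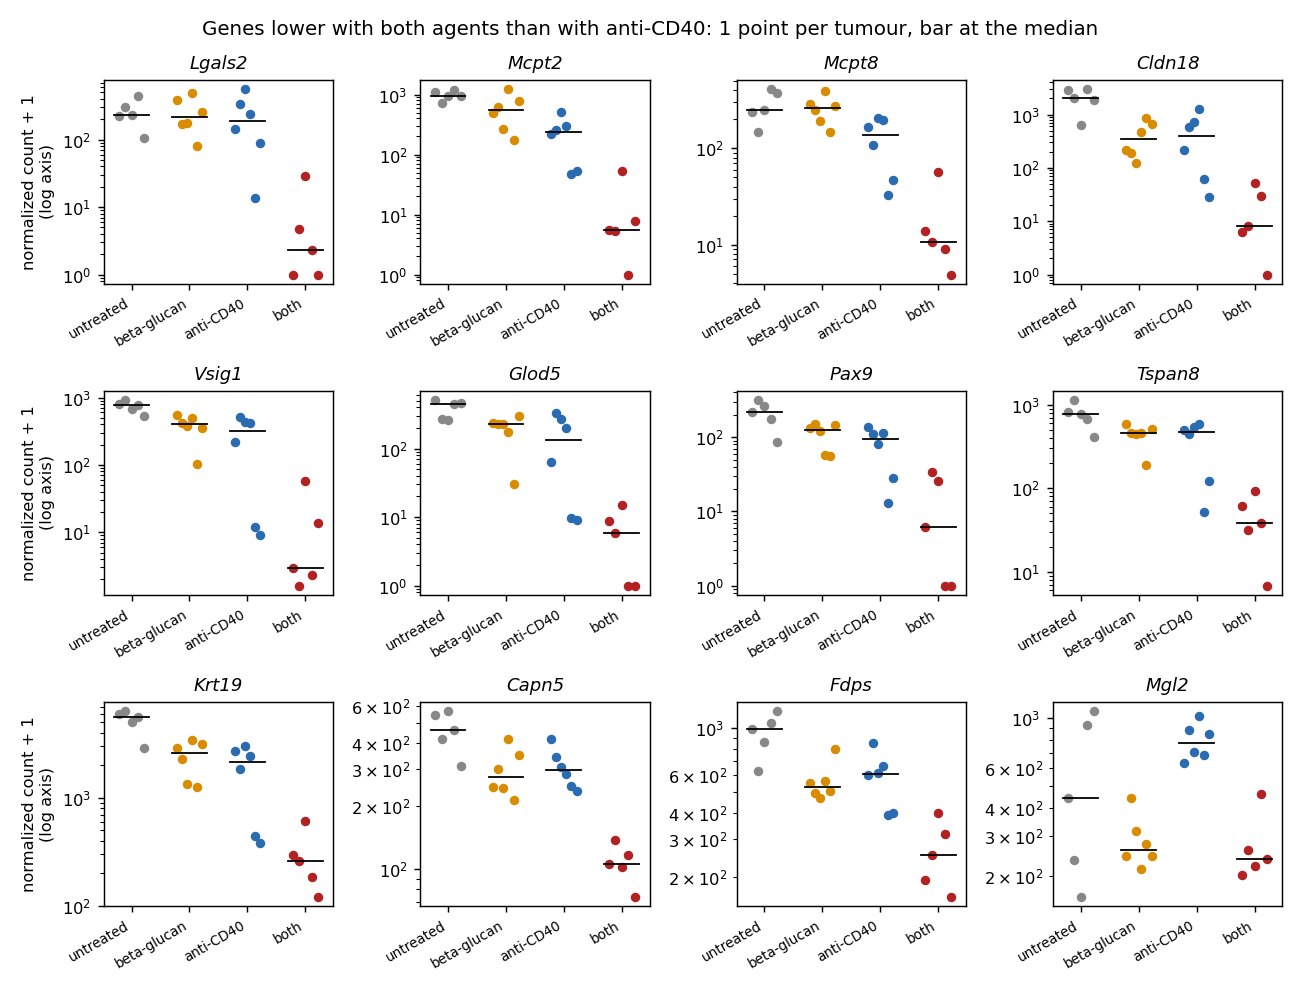
Normalized count + 1 on a log axis for 12 genes that were lower with the combination, 1 point per tumour in the 4 groups ("both" is the combination), with a bar at the median. Capn5 and Mgl2 show no overlap between combination and anti-CD40 tumours; in Vsig1, Glod5 and Krt19, anti-CD40 tumours 5 and 6 fall to the level of the combination.

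The genes Mcpt1, Mcpt2 and Mcpt8, proteases known from mucosal mast cells and basophils, fell, and the other mast cell and basophil genes tested did not pass. Mcpt2, a mast cell chymase of the mucosa, was at 4.5, 4.26, 52.5, 0 and 6.79 with the combination and 46.4 to 520.1 (median 240.4) with anti-CD40 (-4.68 ± 0.76, adjusted p = 0.00608). Mcpt1, its neighbour and close relative, was at 37.9, 32.9, 90.9, 17.3 and 15.5 against 19 to 473 (median 268) (-2.49 ± 0.62, adjusted p = 0.0462), and reads of the 2 genes may not be fully separable. Mcpt8, a protease of basophils, fell by 2.97 ± 0.52 (adjusted p = 0.00704). Each of the 3 overlapped in at least 1 tumour, since combination tumour 3 was the highest of its group and anti-CD40 tumours 5 and 6 the lowest of theirs. Leaving out any single tumour kept 2 or 3 of the 9 tested genes of the list lower. Of those 9 genes, 3 had positive and 6 negative values. The list members Tpsab1, Ms4a2, Fcer1a and Gata2 were too low to be tested. Cpa3, a protease of all mast cells, was at -0.77 ± 0.79 and the growth factor receptor Kit at 0.34 ± 0.38; neither passed. Hdc, which makes histamine and is expressed by mast cells, basophils and neutrophils, was at 566, 229, 388, 385 and 290.0 against 0 to 156 (median 70.1) (3.12 ± 0.85, adjusted p = 0.0662), above in every tumour and not called. In untreated tumours Mcpt2 stood at 713 to 1188 (median 962) and in beta-glucan tumours at 176 to 1234 (median 545). Cpa3 had a mean of only 10.3 in untreated tumours, where Mcpt2 had a mean of 986. Whether the 3 proteases follow the content of mast cells or basophils was not tested.

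A few cell cycle and cholesterol genes fell. The cyclin Ccnb1, which drives entry into mitosis, stood at 200.005, 215, 199, 99.6 and 88.3 against 182 to 629 (median 373) (-1.24 ± 0.29, adjusted p = 0.0345), and Mcm7, a subunit of the replicative helicase, fell by 0.79 ± 0.20. These were the 2 of 27 cell cycle genes that fell. In all, 25 of 27 were negative, with a median of -0.72, and Mki67 was at -0.23 ± 0.25. The count was 11 without anti-CD40 tumour 6, 6 without anti-CD40 tumour 5, 4 without combination tumour 3, 1 without combination tumour 2, and 0 without any other single tumour. In the cholesterol synthesis list, put together after the data had been seen, 5 of 18 tested genes fell, among them Fdps (-1.17 ± 0.24), Cyp51 (-1.15 ± 0.25), Sqle (-1.02 ± 0.25) and Msmo1 (-0.98 ± 0.24). The products of these 4 make farnesyl diphosphate and carry it on towards cholesterol. Fdps was at 193, 252, 399, 316 and 160.0 against 389 to 849 (median 608), with combination tumour 3 level with anti-CD40 tumours 5 and 6. The list's median was -0.63 with 16 of 18 negative, and Hmgcs1 (-0.65 ± 0.18), which acts early in the pathway, did not pass. None of the 5 calls held without anti-CD40 tumours 2, 3 or 4 or combination tumours 1 or 5, 1 gene passed without combination tumour 2, 2 without anti-CD40 tumour 1 and 3 without combination tumour 4.

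Lymphoid and interferon genes gave almost no calls. Cd3e, a chain of the T cell receptor complex, was at 227, 194, 130.1, 353 and 262 with the combination and 97.7 to 422 (median 194) with anti-CD40 (0.17 ± 0.55, adjusted p = 0.933). Cd8a (-0.15 ± 0.41), Ifng (0.12 ± 0.71), the granzyme Gzmb (-0.74 ± 0.91) and Ccl5, a chemokine of activated T cells (0.42 ± 0.45), overlapped between the groups as well. None of 18 T cell, 15 cytotoxic, 13 B cell, 10 plasma cell, 10 class II, 14 class I and 24 interferon-gamma response genes tested passed, with medians of 0.46, -0.15, 0.19, 0.46, 0.16, 0.10 and -0.16. The interferon-gamma targets Cxcl9 (-0.07 ± 0.32) and Cxcl10 (-0.80 ± 0.51) were among them, as was Mzb1, a plasma cell chaperone (0.59 ± 0.83). Cd40 itself was at 236, 289, 141, 282 and 176 against 64.6 to 316 (median 137) (0.70 ± 0.39, adjusted p = 0.402). At unadjusted p under 0.05, limma gave 1 higher T cell gene, 1 higher plasma cell gene, 1 lower cytotoxic gene and none in the other 4 lists. DESeq2 on the recovered reads called 0 T cell, 1 cytotoxic, 0 B cell, 0 plasma cell, 0 class II, 0 class I and 0 interferon-gamma response genes, and edgeR 0, 0, 0, 0, 0, 0 and 0. Without anti-CD40 tumour 5, 1 T cell gene passed. Of the 18 T cell genes 16 were positive, of the 15 cytotoxic genes 6 and of the 24 interferon-gamma response genes 6. A list of regulatory T cell and checkpoint genes had a median of 0.80, with 9 of 12 tested positive and none called by limma. DESeq2 called 2 of these 12 higher. In the lymphoid tissue list Chst4, a sulfotransferase of high endothelial venules and mucosa, fell, with 3 reads in all 5 combination tumours together against a range of 0 to 92.4 (median 15.7) normalized counts with anti-CD40 (adjusted p = 0.0308). Its fitted fold depends on the pseudocount, and the call was lost without any 1 of anti-CD40 tumours 2, 3 or 4 or combination tumours 1, 4 or 5. Chst4 was the 1 of 10 tested genes of that list that passed, while 7 of the 10 were positive and the median was 0.32. It had a mean of 202 in untreated tumours and 82.7 with beta-glucan, and which cells its transcripts came from was not tested.

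Besides Serpinb2, the smallest p-values belonged to 2 genes named here after their values were seen. Gas1, a membrane protein of growth-arrested cells and fibroblasts (chr13:60174405-60177365), stood at 461, 593, 466, 798 and 448 with the combination and 121 to 193 (median 149.7) with anti-CD40 (1.83 ± 0.26, adjusted p = 0.00151). Capn5, a calpain protease (chr7:98121559-98178274), stood at 104, 137, 101, 116 and 72.7 against 234 to 417 (median 295) (-1.52 ± 0.22, adjusted p = 0.00151). Neither gene's groups overlapped. Gas1 passed in 25 of 26 alternative fits and Capn5 in 24 of 26. Both fell short without the tumours with over 30% acinar values, at log2 values of 1.76 and -1.44, and Capn5 also with values rescaled to equal totals, at -1.39.

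The same agent was also given without the antibody, and the 2 comparisons share no tumours. They do share the estimate of each gene's spread, so their calls are not independent. Beta-glucan against untreated gave 727 higher genes (5.09% of those tested) and 189 lower ones (1.32%). Of the 94 genes that rose on adding beta-glucan to anti-CD40, 69 (73.4%) were also higher with beta-glucan alone, which is 9.49% of the 727. In 91 of the 94 the beta-glucan value was positive, with a median log2 fold change of 1.55. Of the 118 that fell, 11 (9.32%) were also lower with beta-glucan alone, 5.82% of the 189. In 95 of the 118 the value was negative, with a median of -0.54. No gene passed in opposite directions. Across all genes the 2 sets of log2 fold changes had a Pearson correlation of 0.376, over genes that are not independent. Saa3 shows the shared rise: beta-glucan alone moved it by 3.40 ± 0.55, from 369 to 2273 (median 1314) to 2185 to 18169 (median 13544), and adding beta-glucan to anti-CD40 by 3.06 ± 0.55. For Lgals2 the values were -0.08 ± 0.84 with beta-glucan alone and -5.48 ± 0.84 on top of anti-CD40, and the difference between the 2 did not pass (adjusted p = 0.144).

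**Figure D5:**
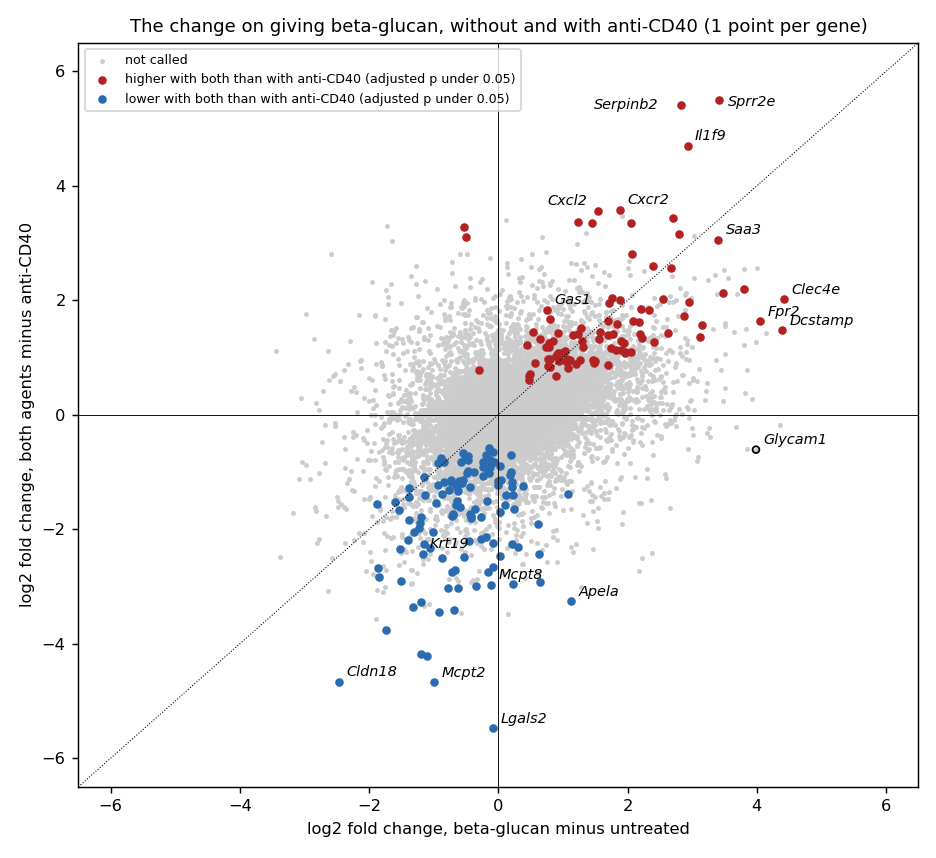
Log2 fold change on giving beta-glucan to untreated tumours (horizontal) and on adding it to anti-CD40 (vertical), 1 point per gene; red points rose and blue points fell with the combination against anti-CD40, and the dotted line marks equal change. Red points lie almost all in the upper right, 91 of 94 with a positive horizontal value, while blue points cluster closer to the vertical axis.

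A direct test of whether beta-glucan acted differently with and without anti-CD40 called 3 genes (0.021% of those tested), all 3 with a lower value on the antibody background, and 1194 at unadjusted p under 0.05. Dcstamp, a membrane protein needed for the fusion of macrophages into giant cells, was the 1 of them that also rose here. It stood at 196, 124, 318, 121 and 136 with the combination, 21.7 to 101 (median 66.4) with anti-CD40, 190.0 to 301 (median 251) with beta-glucan and 6.04 to 13.8 (median 12.3) untreated. Its level rose by 4.39 ± 0.36 with beta-glucan alone and by 1.47 ± 0.36 on top of anti-CD40, a difference of -2.92 ± 0.50 (adjusted p = 0.0385), and the combination and beta-glucan tumours overlapped. Glycam1, a sialomucin of high endothelial venules, had no read in any of the 5 untreated tumours and stood at 7.6 to 32.8 (median 13.6) with beta-glucan alone, 29 to 149 (median 54.4) with anti-CD40 and 44.4, 49.3, 79.2, 42.5 and 11.6 with the combination. The fitted difference of -4.60 ± 0.75 (adjusted p = 0.0318) therefore depends on the pseudocount. Tuba1a, an alpha-tubulin, was higher by 1.21 ± 0.22 alone and at -0.52 ± 0.22 on top (difference -1.74 ± 0.31, adjusted p = 0.0486). The number of such genes was 12 without untreated tumour 6, 8 without anti-CD40 tumour 5, 6 without anti-CD40 tumour 6 and 1 without anti-CD40 tumour 3. It was 0 without anti-CD40 tumours 1 or 2, combination tumours 4 or 5, untreated tumours 1, 2 or 5, or beta-glucan tumours 1, 2, 3 or 5.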

How the data were processed

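RNA from 5 µm sections was sequenced as 3′ tag libraries made from 100 ng, per the labels' protocols. STAR, DESeq2 and the build mm10 are named in the submitters' processing notes. For the counting tool, its use of strand and the versions, the sources used here give nothing. The deposited signal values are read counts divided by a size factor per tumour: 100% of 395252 values were whole reads within 0.001 reads once rescaled. Among the gene names 23 read as dates, and 2 were present repeatedly.

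Groups came from the labels. Genes of at least 10 in at least 5 of 22 tumours were tested with limma 3.58.1 (R 4.3.3; trended, robust) on log2(value + 1), with all 22 tumours and 4 group means, and Benjamini-Hochberg adjustment. Alternatives were edgeR 4.0.16 and DESeq2 1.42.0 on recovered reads, other scalings, filters and pseudocounts, an acinar covariate, a replicate block and left-out tumours. Scripts were tested on simulated data. No 2 tumours of a group were alike within sampling noise (lowest chi-square per degree of freedom 12.7 over 50 pairs). Depth is 6.33 M to 21.2 M reads in the 11 tumours compared.

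Named genes were the 12 largest rises and the 12 largest falls with a group mean of at least 30, up to 4 genes of smallest p per list, and fixed genes. Others were added for their known roles with their values seen. Members and lists were chosen with earlier results of these data known. Gene positions follow GENCODE M21, and promoters RefSeq. A few members of the lists are counted in them and not reported here by name.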

Additional observations from a re-analysis of the deposited data

Results flagged for a closer look

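Single tumours far from the rest of their group in genes named here were looked for in 230 groups of values, and 18 (7.83%) stood out, where chance gives about 1 in 20. Anti-CD40 tumour 5 accounted for 8 of them. It was high for Saa3 (14700 normalized counts, next 3670), Tyrobp (5690, next 2900), Fcgr3 (3820, next 2180) and Cd68 (2860, next 1290). It was also high for Tlr13 (452, next 231), Sparc (63500, next 33000) and Zeb2 (687, next 356), and low for Cdh1 (967, next 3170). Anti-CD40 tumour 6 was low for Mcpt1 (19, next 145), Msmo1 (296, next 628), Cd274 (76.1, next 153) and Hdc (0, next 39.1). Combination tumour 4 was low for Fpr1 (50.5, next 220), Mmp13 (477, next 1390), Cd274 (163, next 524), Cxcl10 (95.6, next 422) and Lyz2 (1920, next 4800). Combination tumour 2 was low for Cybb (6050, next 8090).

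In 3 genes the effect of beta-glucan on anti-CD40 tumours differed from its effect on untreated ones by limma's test of that difference. The log2 difference was -2.92 for Dcstamp, -4.60 for Glycam1, which had no read in untreated tumours, and -1.74 for Tuba1a.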

How the results depend on the processing

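The count of 212 (94 higher, 118 lower) became 6 (4 and 2) with the 11 tumours fitted alone, where the spread is estimated from those 11 only. It became 8 (5 and 3) with equal totals, 50 (27 and 23) with equal totals that leave out the acinar list, 3 (1 and 2) without tumours of over 30% acinar values, and 665 (220 and 445) with DESeq2. edgeR called 148 (44 and 104). The causes of these changes in the count were not tested. Of the largest rises and falls, edgeR did not call Il1f9, Slc6a12, Car4, Mmp3, Adam28, Pax9, Plut or Frmpd1. Many other genes called by limma and named above were not called by edgeR, among them S100a8, Clec4e, Fpr2, Mmp9, Mmp13, Cd68 and Col1a1. In the Dectin-1 pathway, macrophage, Toll-like receptor, eicosanoid and complement lists, edgeR called no gene higher. DESeq2 called every gene named so far in this paragraph except Frmpd1. Leaving out 1 tumour gave 28 to 852 genes called, 19 to 412 higher and 7 to 440 lower, and 0 to 12 genes in the test of the difference between the beta-glucan effects. Other pseudocounts and filters, quantile normalization, the acinar covariate and no robust moderation gave 188 to 255. The acinar share difference of -4.07 percentage points became 3.73 without anti-CD40 tumour 6 and 1.6 without combination tumour 1, and ran from -9.40 to 3.73 with 1 tumour left out.

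A replicate block by the numbers in the titles gave 223 genes (81 higher, 142 lower), and one by the numbers in the column names 330 (147 and 183). The 2 numberings differ in 1 tumour, combination tumour 5, whose column carries the number 6. Deviations of tumours with the same title number correlated at 0.338, -0.238, 0.17, -0.271 and -0.144 for numbers 1 to 5. By column number the values for 1 to 4 are the same and that for 6 is 0.161. Numbers 1, 3 and 6 were each best matched with their own number, and 2 and 4 were not. So few correlations cannot tell whether either numbering pairs the tumours. Fitted values of genes near 0 reads, such as Chst4 and Glycam1, depend on the pseudocount.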

Other observations

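Several further immune genes rose with the combination against anti-CD40. Fcgr3, an activating receptor for IgG, rose by 0.94 ± 0.21 and was 1 of 2 among 10 tested Fc receptor and adaptor genes, the other being Tyrobp. Tlr4, the receptor for lipopolysaccharide, rose by 0.85 ± 0.22 and Tlr13, which senses bacterial ribosomal RNA in mice, by 1.07 ± 0.27, as the 2 of 13 Toll-like receptor and co-receptor genes. Serping1, the inhibitor of the first complement component, rose by 1.14 ± 0.28 and with C3ar1 made up the 2 of 15 complement genes. Hmox1, which degrades heme, was the 1 of 12 stress genes that rose (1.43 ± 0.27), and Zeb2, a transcription factor of mesenchyme and macrophages, the 1 of 12 in the list of epithelial-mesenchymal transition (1.08 ± 0.26). These counts changed with single tumours left out. They ran from 0 to 5 for Fc receptor genes, 0 to 3 for Toll-like receptor genes, 0 to 4 for complement genes and 0 to 2 for the transition list, each highest without anti-CD40 tumour 5. The Toll-like receptor count was 0 without any 1 of the tumours other than anti-CD40 tumours 5 and 6. Fc receptor genes were at 0 without anti-CD40 tumours 2, 3 or 4 or combination tumour 1, and complement genes also without combination tumour 5. The transition list was at 0 except without anti-CD40 tumours 5 or 6 or combination tumour 3. Hmox1 was lost without combination tumour 1.

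Genes of other tissues that a section can hold gave no calls. None of 31 acinar, 19 islet, 7 muscle, 9 adipocyte, 4 erythroid and 10 hepatocyte genes passed in limma, edgeR or DESeq2. With limma, at unadjusted p under 0.05 there were 2 higher adipocyte genes and none in the other 5 lists. The median of the 22 tested ribosomal protein genes was -0.28, with 21 of 22 negative and none called.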
